A study of Mus musculus with 7 samples.

Results

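Meis and Pbx genes encode homeodomain transcription factors of the TALE class that serve as cofactors of Hox proteins, and 6 of them (*Meis1*, *Meis2*, *Meis3*, *Pbx2*, *Pbx3* and *Pbx4*) were followed in the posterior second heart field (pSHF) of mouse embryos without *Shh*. They were taken by gene name, with every probe on the array that carried one of the 6 names, which gave 13 probes out of 41174. All 13 were among the 23129 probes, standing for 14896 genes, that were bright enough to be tested. The rule for probes used names and no measured value.

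RNA from pools of microdissected E9.5 pSHF was hybridized in a single colour (Cy3) to Agilent whole-genome mouse arrays, 1 array per pool, with 4 *Shh* -/- pools and 3 *Shh* +/+ pools. The *Shh* -/- embryos carried the germline null allele in every cell, on a mixed C56B/6 and CD-1 background, and came from *Shh* +/- females that were superovulated and mated to *Shh* +/- males. The *Shh* +/+ embryos shared that background, that hormone treatment and that age, and tissue of several embryos was combined after genotyping, so a value describes a pool and not an embryo. The dissection kept the foregut attached and left out the heart and the neural tube, and in such bulk tissue fewer cells of a type and less RNA per cell cannot be told apart.

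Proteins of the Meis group (*Meis1*, *Meis2*, *Meis3*) bind DNA with their homeodomain and pair with Pbx proteins (*Pbx2*, *Pbx3*, *Pbx4*), and this contact keeps Pbx proteins in the nucleus. Pbx proteins in turn bind DNA together with Hox proteins of the anterior groups, which sharpens the choice of site. In the embryo these factors act in hindbrain, limb and heart, and mutations in several of them cause defects of cardiac septation or of the outflow tract.

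The sequences of 4 probes are shown because they let the reader see what the array read for the Meis and Pbx paralogs. Each is 60 bases long, written 5′ to 3′, and reads through in at least 1 frame with no stop codon. Capitals mark the longest run shared between the Meis1 and Meis3 probes, and between the Pbx2 and Pbx4 probes.
Meis1, A_52_P670612, chr11:18911247-18911306, minus strand: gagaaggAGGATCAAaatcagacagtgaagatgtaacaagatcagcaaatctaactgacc
Meis3, A_52_P575691, chr7:16770024-16770812, plus strand: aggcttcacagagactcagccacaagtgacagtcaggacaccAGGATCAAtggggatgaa
Pbx2, A_52_P339182, chr17:34731746-34731805, plus strand: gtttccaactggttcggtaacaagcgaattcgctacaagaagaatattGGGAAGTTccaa
Pbx4, A_51_P428781, chr8:72393975-72394034, plus strand: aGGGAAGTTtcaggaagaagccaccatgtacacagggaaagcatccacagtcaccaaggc

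The coordinates are those of the array files, on build mm9. The positions of the probes relative to annotated exons, introns and untranslated regions were not checked. The Meis3 probe covers 789 genomic bases with 60 bases of sequence, so it crosses at least 1 intron and reads spliced RNA. Among all 78 pairs of the 13 probes the longest shared run was 8 bases, so no pair of probes reads the same stretch.

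None of the 13 Meis and Pbx probes passed an adjusted p of 0.05 between the genotypes (limma, Benjamini-Hochberg over 23129 probes), against 0.532% of all probes tested (0.29% lower and 0.242% higher in the mutants). The lowest adjusted p was 0.962, none had an unadjusted p under 0.05 (7.95% of all probes did), and the pools of the genotypes overlapped for every probe (8.29% of all probes had no overlap). With the replicate number, which marks the slide, as a block in limma, again none was called (lowest adjusted p = 0.478), where 11 of all probes were. In that fit mutant pool 2 adds nothing to the changes, since no wild-type array shared its slide. The log2 changes, *Shh* -/- minus *Shh* +/+, ran from -0.31 to 0.12, with 8 probes below 0 and 5 above, where 44.9% of all probes tested were below 0. Over the 13 probes and the slides that held both genotypes, the mutant pool was the higher in 13 of 39 comparisons. That share was not counted over all probes. The median of the 13 changes was -0.06, beside 0.02 over all probes tested, and their median absolute change was 0.119, beside 0.0969. The 95% interval lay within 1 log2 unit of 0 for 13 of 13 probes, as it did for 93.9% of all probes, and within 0.5 for 7 of 13, as it did for 60.9%. A p that misses the threshold does not show that the genotypes express these genes alike, and the intervals below hold for this normalization alone. With local background correction 2 of the 13 changes fell outside them, both of *Meis2*, and with the authors' own normalized values, which are not on a common scale, 10 did.

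**Figure D1:**
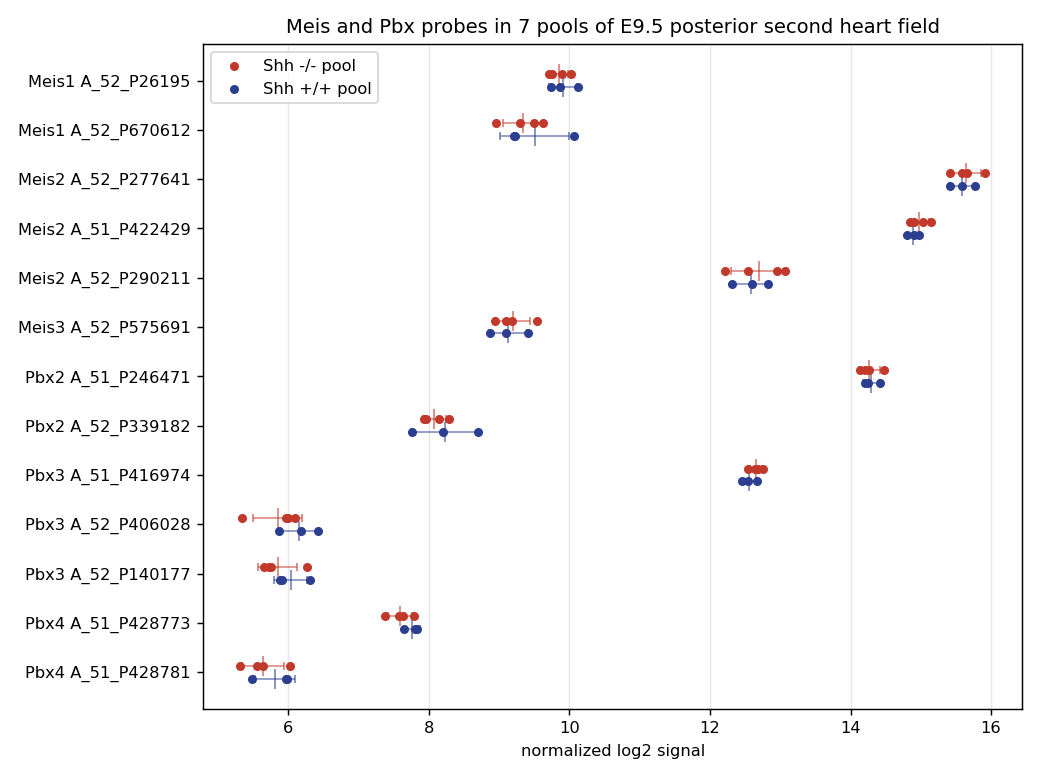
Normalized log2 signal (x axis) of the 13 Meis and Pbx probes (y axis) in each pool, with 4 *Shh* -/- pools in red and 3 *Shh* +/+ pools in blue; the vertical tick is the mean and the bar 1 SD. Red and blue points overlap in every row, and the distance between rows is no comparison of genes, since each probe has its own scale.

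*Meis1*, a cofactor known from hematopoiesis and heart development, was read by a pair of probes 129981 bases apart on chromosome 11. With A_52_P26195 (18781206 to 18781265, minus strand) the normalized log2 signal was 9.70, 9.90, 9.76 and 10.02 in *Shh* -/- pools 1 to 4, and 9.74, 9.86 and 10.13 in *Shh* +/+ pools 1, 3 and 4. Wild-type pool 4 was the highest and mutant pool 1 the lowest, with the remaining pools of both genotypes mixed between them. On each of the 3 shared slides the mutant pool was the lower, with differences of -0.11 to -0.03. The change was -0.06 (SE 0.135, 95% interval -0.37 to 0.24, n = 4 and 3, adjusted p = 0.99982 by limma), or 95.8% of the wild-type level.

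With A_52_P670612, the Meis1 probe printed above, the log2 signal was 8.96, 9.49, 9.30 and 9.63 in the mutant pools and 9.23, 9.22 and 10.07 in the wild-type pools. The same pools stood at the ends, and wild-type pool 4 was far above the other two wild-type pools. The change was -0.16 (SE 0.239, 95% interval -0.70 to 0.38, adjusted p = 0.99982 by limma), the widest standard error among the 13. Without wild-type pool 4 both Meis1 changes turned positive, to 0.05 and 0.12.

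*Meis2*, the paralog most studied in cardiac neural crest, was read by 3 probes on the minus strand of chromosome 2. A_52_P277641 (115689066 to 115689125) and A_51_P422429 (115689130 to 115689189) lie 4 bases apart and carry the same RefSeq transcript. The third, A_52_P290211 (115821828 to 115821887), was designed on a cDNA clone and lies 132638 bases from the nearer of them.

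For A_52_P277641 the log2 signal was 15.66, 15.58, 15.42 and 15.92 in the mutant pools and 15.78, 15.58 and 15.41 in the wild-type pools. For A_51_P422429 it was 14.90, 15.03, 14.84 and 15.15 in the mutant pools and 14.97, 14.91 and 14.80 in the wild-type pools. Mutant pool 4 was the highest and wild-type pool 4 the lowest with both probes, and these 2 pools shared a slide. The changes were 0.05 (SE 0.148, 95% interval -0.28 to 0.39) and 0.09 (SE 0.117, 95% interval -0.18 to 0.35). They were larger, 0.50 and 0.48, with local background correction, and 0.52 and 0.50 with the authors' values at equal array medians, where neither was called (adjusted p of at least 0.905 by limma under every alternative).

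The cDNA probe gave 12.22, 13.07, 12.54 and 12.96 in the mutant pools and 12.60, 12.31 and 12.82 in the wild-type pools. The mutant pools held both the lowest value, in pool 1, and the highest, in pool 2. The change was 0.12 (SE 0.220, 95% interval -0.38 to 0.62), or 109% of the wild-type level, and the adjusted p of each Meis2 probe was 0.99982 by limma.

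*Meis3*, known from hindbrain patterning, had a single probe, the spliced one on chromosome 7. Its log2 signal was 9.18, 9.10, 8.94 and 9.54 in the mutant pools and 8.86, 9.10 and 9.41 in the wild-type pools. The pools of the genotypes were mixed, with wild-type pool 1 lowest and mutant pool 4 highest. The change was 0.06 (SE 0.177, 95% interval -0.34 to 0.47, adjusted p = 0.99982 by limma).

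*Pbx2*, a broadly expressed Pbx gene, had a pair of probes 1549 bases apart on the plus strand of chromosome 17. A_51_P246471 (34733355 to 34733414) gave 14.26, 14.13, 14.21 and 14.48 in the mutant pools and 14.42, 14.26 and 14.21 in the wild-type pools. These 7 values spanned 0.349 log2 units, and the wild-type pools lay inside the range of the mutant pools. The change was -0.02 (SE 0.122, 95% interval -0.30 to 0.25, adjusted p = 0.99982 by limma), or 98.4% of the wild-type level.

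The Pbx2 probe printed above, A_52_P339182, gave 7.96, 7.93, 8.15 and 8.28 in the mutant pools and 7.76, 8.21 and 8.71 in the wild-type pools. Here the wild-type pools held both ends of the range, so that the mutant pools lay inside it. The change was -0.14 (SE 0.209, 95% interval -0.62 to 0.33), and without wild-type pool 4 it was 0.10.

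*Pbx3*, a Pbx gene linked to outflow tract development and to respiratory control, was read by 3 probes on the minus strand of chromosome 2. The probe of the RefSeq transcript, A_51_P416974 (34027483 to 34027542), gave 12.68, 12.75, 12.54 and 12.65 in the mutant pools and 12.66, 12.46 and 12.54 in the wild-type pools. The mutant pool was the higher on each of the 3 slides that held both genotypes, by 0.01 to 0.10, but the pools overlapped. The change was 0.10 (SE 0.108, 95% interval -0.15 to 0.35), or 107% of the wild-type level.

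The other Pbx3 probes were designed on cDNA clones and gave 59.5 to 119.1 and 71.4 to 117.2 intensity units, well above background on all 7 arrays, where the median local background was 21 to 25. A_52_P406028 (34030520 to 34030579) gave log2 values of 5.34, 5.99, 5.97 and 6.10 in the mutant pools and 5.86, 6.18 and 6.42 in the wild-type pools. A_52_P140177 (34223741 to 34223800) gave 5.76, 6.27, 5.65 and 5.72 in the mutant pools and 5.89, 5.91 and 6.31 in the wild-type pools. On each of the 3 shared slides the mutant pool was the lower with both probes, with differences of -0.53 to -0.21 and of -0.58 to -0.13.

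The change was -0.31 with A_52_P406028 (SE 0.207, 95% interval -0.77 to 0.16, adjusted p = 0.962 by limma), the largest among the 13 probes in size. It was -0.19 with A_52_P140177 (SE 0.178, 95% interval -0.59 to 0.22). Neither passed the threshold, and both point the other way from the RefSeq probe, though whether they read the same transcript was not checked. Without mutant pool 1, the lowest of its group, the first was -0.13.

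*Pbx4*, the Pbx gene best known from the testis, had a pair of probes 1933 bases apart on the plus strand of chromosome 8. A_51_P428773 (72395968 to 72396027) gave 7.63, 7.78, 7.57 and 7.37 in the mutant pools and 7.64, 7.81 and 7.84 in the wild-type pools. The mutant pool was the lower on 3 of 3 shared slides, with differences of -0.46 to -0.01, and mutant pool 2 stood above wild-type pool 1. The change was -0.17 (SE 0.127, 95% interval -0.46 to 0.11), with an exact permutation p of 0.143, the lowest of the 13 probes, where 4 against 3 pools allow no p under 0.0286 (two-sided).

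The printed Pbx4 probe, A_51_P428781, gave 5.56, 6.03, 5.65 and 5.32 in the mutant pools and 5.48, 5.97 and 5.99 in the wild-type pools. Mutant pool 2 was the highest and mutant pool 4 the lowest of all. The change was -0.18 (SE 0.192, 95% interval -0.61 to 0.26), close to that of the first Pbx4 probe, and 88.5% of the wild-type level. This probe was dim, with 59.7 to 104.4 intensity units, near the Pbx3 cDNA probes, though well above background on all 7 arrays.

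Probes of a gene were then compared within each array, as the log2 signal of one minus that of the other, to ask whether they differ in their genotype change. Of 9 such pairs none passed the threshold, and the lowest adjusted p was 0.932 (two-sided exact permutation tests over 35 assignments, adjusted over the 9 pairs). This test could hardly have passed, since the smallest exact permutation p of 0.0286 becomes 0.257 for a single pair after adjustment, and 6 of the 9 pairs would have to reach it. The RefSeq probe of *Pbx3* minus A_52_P406028 was 6.80 ± 0.368 (SD, n = 4) in the mutant pools and 6.40 ± 0.354 (SD, n = 3) in the wild-type pools, a difference of 0.40 with an exact permutation p of 0.257. The Pbx4 pair was the closest, with 1.95 ± 0.145 (SD) and 1.95 ± 0.182 (SD).

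How closely probes of a gene followed each other from pool to pool differed between genes. Over the 7 arrays Pearson's r was 0.94 for the Meis1 pair, 0.92 for the Pbx4 pair and 0.86 for the adjacent Meis2 probes. It was 0.14 and 0.51 between these Meis2 probes and the cDNA probe, and -0.13 for the Pbx2 pair. For *Pbx3* it was -0.51 and 0.13 between the RefSeq probe and the cDNA probes, and 0.49 between the cDNA probes. These are descriptions over 7 points that share arrays, slides and 1 normalization.

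**Figure D2:**
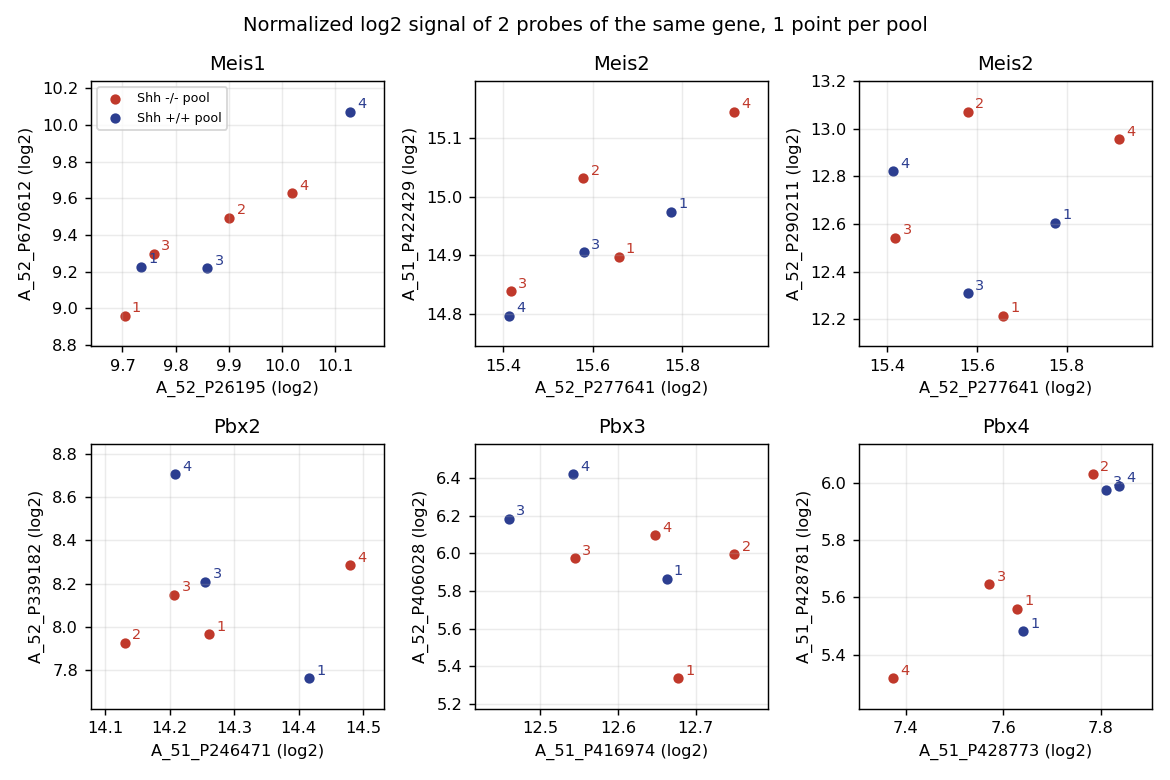
Normalized log2 signal of one probe (x axis) against another probe of the same gene (y axis), 1 point per pool, numbered by pool, red for *Shh* -/- and blue for *Shh* +/+. The points follow a line for *Meis1* (r = 0.94), the adjacent Meis2 probes (r = 0.86) and *Pbx4* (r = 0.92), and scatter for the Meis2 cDNA probe (r = 0.14), *Pbx2* (r = -0.13) and *Pbx3* (r = -0.51).

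Wild-type pool 4 was the highest of the 7 pools for 6 of the 13 probes (both of *Meis1*, both cDNA probes of *Pbx3*, 1 of *Pbx2* and 1 of *Pbx4*) and the lowest for both adjacent Meis2 probes. It was also the array with the largest share of probes well above background, 70.6%, where the others had 59.96% to 69.7%. The part of this in the Meis and Pbx values was not tested.

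The label check and the dissection stand beside these values as follows. The *Shh* probe read 9.64, 9.36, 9.19 and 9.29 in the mutant pools and 10.69, 10.71 and 9.95 in the wild-type pools, a change of -1.08 (SE 0.202, adjusted p = 0.0650 by limma) with no overlap. All 6 Hedgehog targets listed were below 0, with a median of -1.09. *Hhip* (-2.82, adjusted p = 0.00124 by limma) and *Foxf2* (-2.43, adjusted p = 0.00208), a membrane antagonist of Hedgehog and a forkhead factor, fell past the threshold. Of all genes, 0.389% were called lower. The study identified *Foxf1a* and *Foxf2* as Hedgehog targets partly from these same arrays, so their fall is no independent check of the labels. In limma 6 of 14 second heart field and 4 of 12 foregut endoderm markers had an unadjusted p under 0.05. Of the 6, *Osr1* (-0.88), *Tbx1* (-0.79), *Isl1* (-0.43) and *Gata5* (-0.37) were lower in the mutants, and *Fgf10* (0.56) and *Tbx18* (0.47) higher. Of the 4, *Nkx2-1* (-0.88) and *Cldn4* (-0.41) were lower, and *Spink3* (0.79) and *Krt8* (0.39) higher. Over the whole lists, 6 of 14 and 9 of 12 markers were below 0. None of either list was called, and 7.95% of all probes tested passed that unadjusted threshold. All 14 and 12 markers of these lists were bright enough to be tested. So were 11 of 11 cardiomyocyte markers, none called and all above 0 (median change 0.23), with means of 12.60 to 13.96 in the mutant pools and 12.72 to 13.46 in the wild-type pools, although the heart was dissected away. In the list of neural crest markers 11 of 11 were below 0 and 2 were called, where 0.389% of genes were called lower, with a mean log2 signal of 7.88 to 8.18 in the mutant pools and 8.51 to 8.76 in the wild-type pools. Sclerotome markers (2 of 7 called lower, beside the same 0.389%) ran from 6.42 to 6.79 in the mutant and 7.58 to 8.08 in the wild-type pools. The 2 called were *Pax1* (-3.01) and *Pax9* (-2.54), and the others ran from -1.10 (*Meox1*) to 0.13 (*Nkx3-2*) by brightest probe. Liver bud markers (3 of 9 called higher, where 0.363% of genes were) ran from 12.27 to 12.66 and from 11.61 to 11.80. None was called among erythroid (9 of 9 below 0), myotome (3 of 3 below 0), neural tube (7 of 8 below 0) and endothelial markers (9 of 10 above 0). These counts are over tested genes, which were 3 of 5 listed for myotome and 8 of 12 for neural tube. Of all probes tested, 44.9% were below 0. Under the replicate block 1 neural crest marker, 0 sclerotome and 0 liver bud markers were called in limma. The part of these tissue differences in the Meis and Pbx values was not tested.

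Among the other TALE homeobox genes *Irx1* was lower in the mutants. Of 11 listed genes 10 could be tested, and 1 was called, lower in the mutants, where 0.389% of all 14896 genes, each read by its brightest probe, were called in that direction (0.752% in either direction). This gene was *Irx1*, an Iroquois patterning factor, with 11.64, 11.80, 11.60 and 11.90 in the mutant pools and 12.95, 12.58 and 12.72 in the wild-type pools. Its change was -1.01 (SE 0.133, adjusted p = 0.0240 by limma), its second probe gave -1.03 without passing the threshold (adjusted p = 0.0779), and the mutant pool was the lower on each shared slide, with differences of -1.31 to -0.81.

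The Irx1 call was lost with the replicate block (adjusted p = 0.0644), with no filter on dim probes (0.0550) and with the authors' own normalized values. It was also lost on leaving out mutant pool 2 (0.0586) or 3 (0.0891), or wild-type pool 1 (0.107), 3 (0.0565) or 4 (0.0793), all as limma adjusted p, while its change stayed between -0.91 and -1.10. The replicate block and leaving out mutant pool 2 gave *Irx1* the same change, -1.04, as the block takes no change from that pool. *Irx2*, the neighbor of *Irx1* in the same gene cluster, had a change of -0.79 (SE 0.166, adjusted p = 0.0945 by limma). Its other probes gave -0.86 and -0.79, and its pools did not overlap between genotypes, as for 8.29% of all probes. The remaining 8 tested genes, among them *Pknox1* and *Pknox2*, the Meis relatives that also pair with Pbx proteins, had changes from -0.21 to 0.12 by their brightest probes. For *Pknox2* the tested probes disagreed, with -0.21 (no overlap between genotypes) and 0.22, and neither was called. The interval of *Irx1*, -1.32 to -0.71, lay below those of 12 of the 13 Meis and Pbx probes and met that of Pbx3 A_52_P406028, but *Irx1* was named for its change, so that this is a description and no test.

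**Figure D3:**
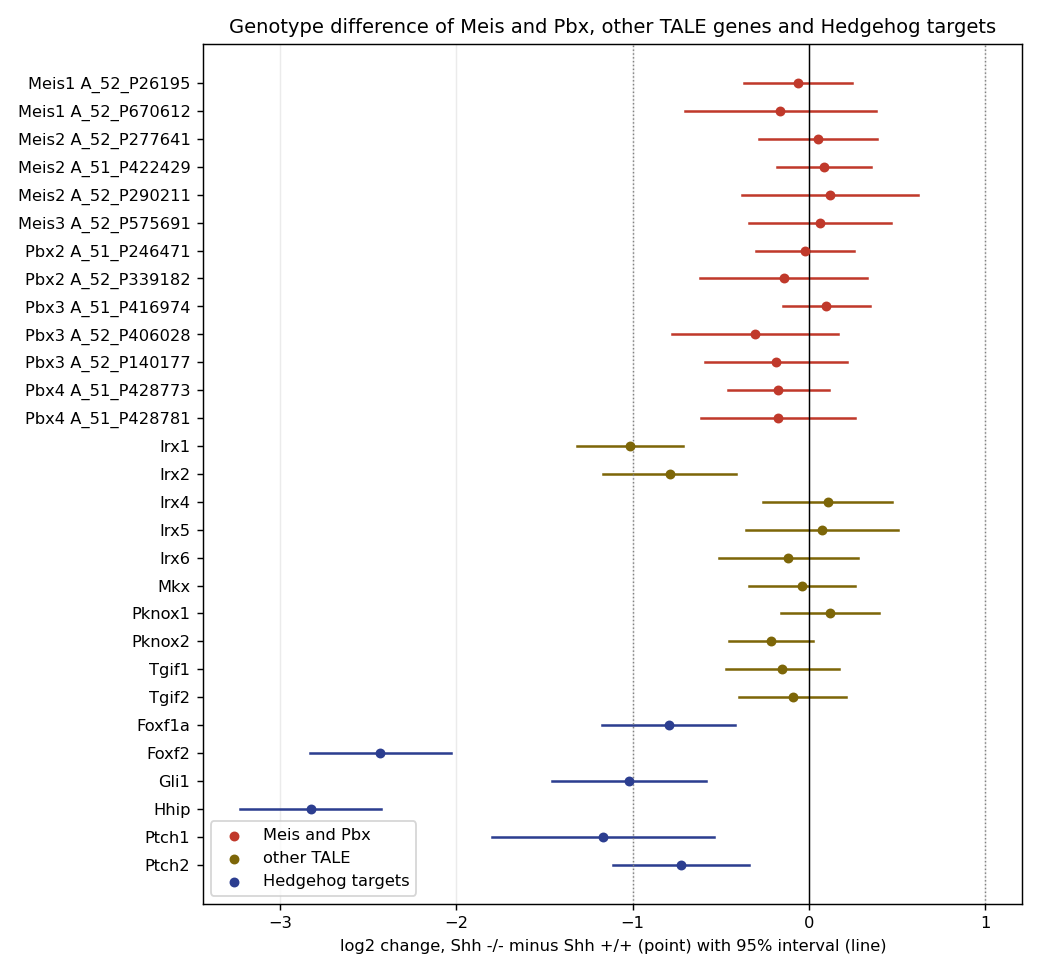
Log2 change, *Shh* -/- minus *Shh* +/+ (x axis; point) with its 95% interval (line), for the 13 Meis and Pbx probes (red), 10 other TALE genes by their brightest probe (ochre) and 6 Hedgehog targets (blue); dotted lines mark changes of 1 in either direction. Every red interval crosses 0 and stays between the dotted lines, while *Irx1* is at -1.01 and *Hhip* at -2.82.

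The partners and an upstream signal were described from lists of the same kind. Of 15 Hox genes of groups 1 to 5, all tested, none was called, with 9 below 0, 6 above and a median change of -0.06. In limma 3 of them had an unadjusted p under 0.05, where 7.95% of all probes tested did. The largest changes were 0.63 for *Hoxc5* (SE 0.283, adjusted p = 0.650) and -0.55 for *Hoxd3* (SE 0.207, adjusted p = 0.476), whose pools overlapped in both cases. Both probes were dim, with log2 values of 5.12 to 6.79 for *Hoxc5* and 5.68 to 6.98 for *Hoxd3*. The change of *Hoxc5* was 0.39 without wild-type pool 1 and also with quantile normalization, and that of *Hoxd3* was -0.36 with the latter. Retinoic acid is a known inducer of Meis genes, and of 18 listed genes of its pathway 17 were tested and none called. Their median change was -0.04, and 3 had an unadjusted p under 0.05 in limma, beside the same 7.95%.

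*Crabp1*, which binds retinoic acid in the cytoplasm, had a change of -0.47 (SE 0.149, adjusted p = 0.332). It was the 1 gene of this list called when arrays were weighted by their quality (change -0.64, adjusted p = 0.0270 by limma). *Aldh1a1*, which makes retinoic acid, had -0.45 (SE 0.296, adjusted p = 0.938), but -0.12 without wild-type pool 1 and -0.29 without mutant pool 2. The other genes at an unadjusted p under 0.05 had no overlap between genotypes, as was so for 8.29% of all probes. They were *Rdh10*, which makes the aldehyde precursor, at -0.39 (second probe -0.40, adjusted p = 0.232 by limma), and the receptor *Rara* at -0.41 (adjusted p = 0.321 by limma). The *Rara* probe was dim, with log2 values of 5.01 to 5.69 over the pools.

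**Figure D4:**
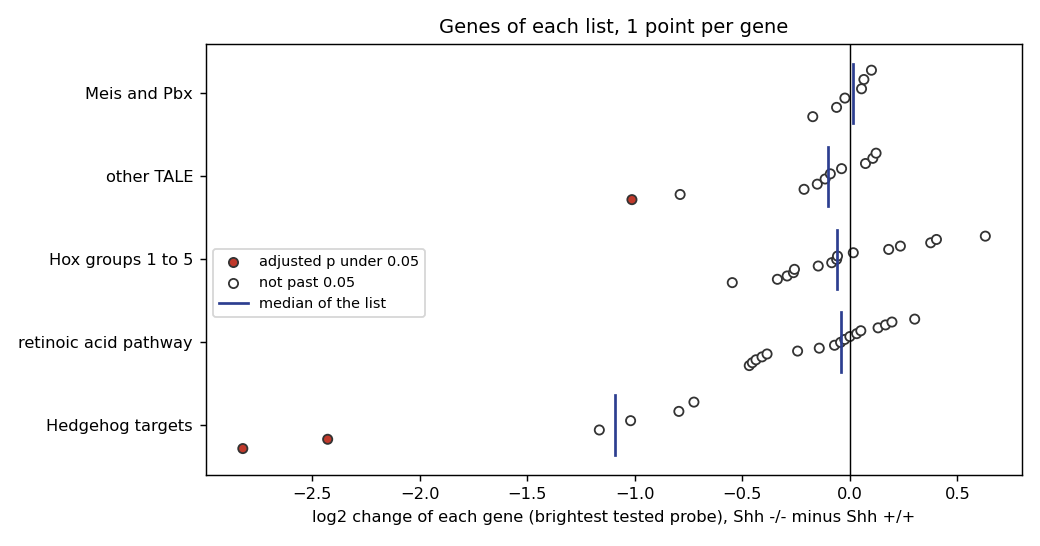
Log2 change of each gene by its brightest probe (x axis), *Shh* -/- minus *Shh* +/+, 1 point per gene, in 5 lists (y axis), filled where the limma adjusted p was under 0.05; the blue line is the median. The 6 Meis and Pbx genes lie between -0.17 and 0.10, the Hox genes between -0.55 and 0.63, and filled points are *Irx1*, *Hhip* and *Foxf2*.

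By the pattern over the 7 arrays, the genes most like each member's brightest probe, out of 13997 genes well above background on every array, were *Zfp821* (r = 0.99) and *Zfp653* (r = 0.99) for *Meis1*, and *Snrpc* and *Rpl41* (both r = 1.00 after rounding) for *Meis2*. For *Meis3* they were *Ogfr* (r = 0.97) and *Mrpl4* (r = 0.97), for *Pbx2* *Ube2e1* (r = 1.00 after rounding) and *Ranbp1* (r = 0.99), for *Pbx3* *Ndst2* (r = 0.99) and *Ttpal* (r = 0.96), and for *Pbx4* *Tsix* and *Pla2g7* (both r = 0.95). These are the highest of many correlations over 7 points that share slides and normalization. Apart from *Pla2g7* (-0.41) and *Tsix* (-0.20), the changes of these genes lay between -0.09 and 0.11.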

How the data were processed

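Per the labels, the authors read 7 single-colour arrays with Agilent Feature Extraction 10.5.1.1. The deposited files give mean spot signal and local background as intensity, and the authors' normalized log2 values are deposited too (26255 rows, array medians of 5.50 to 9.93, which is not a common scale), used only as an alternative. Groups came from the labels, where the entries for strain and genotype each hold what belongs to the other. The series design calls the pools independent.

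Each array held 43379 spots for 41174 probes, with 59.96% to 70.6% of probes well above background and median signals of 86.4 to 145.3 intensity units. The number of pools limits the precision. Signals were corrected by normexp on 153 negative control spots (offset 50), outlier spots (155 to 206 per array) were left out, and VSN (own implementation, trimming share 0.9, 7 iterations) gave log2 values, with array medians within 0.0978. Probes with a gene name were tested if every array of either genotype had them well above background, with limma 3.58.1 in R 4.3.3 with data.table (version 1.17.8), 4 against 3 pools, called at an adjusted p under 0.05. SAM, which the study used, was not run. The fit and VSN were tested on simulated data.

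Pools numbered 1, 3 and 4 of both genotypes lay in pairs on 3 slides, the mutant in the first position each time, so position cannot be told apart from genotype. No wild-type array lay beside mutant pool 2, for which the label notes a possible leak. Deviations from the genotype means correlated at 0.192, 0.239 and 0.0329 within slides, and at -0.22 to 0.187 over 9 pairs from different slides, so slide was an alternative, fixed or random (correlation 0.0999).

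Named were every probe of the 6 genes and, of each pathway list, the genes called and the 2 largest changes by brightest probe; *Pknox1*, *Pknox2*, *Rdh10* and *Rara* were chosen after their values were seen. Second heart field and foregut markers were named where their unadjusted p was under 0.05, also after their values were seen. The members and lists were chosen with earlier results of these data known. Alternatives were 75th percentile scaling, quantile normalization, no or local background correction, the authors' values, no or an interquartile filter, outlier spots kept, a variance trend, array weights, slide, and leaving out each pool; a version of the authors' table scaled to equal array medians was added after seeing the data. The remaining member of the Pbx family was not analysed here. Figures used matplotlib 3.10.9 and pandas 2.3.3 in Python 3.11.15.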

Additional observations from a re-analysis of the deposited data

Results flagged for a closer look

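Of 22 groups of 4 mutant pools, 1 for each of the 13 probes and 9 probe differences, 2 held a pool far from the others, where chance alone gives about 1 in 20. Both concern *Pbx3*. For A_52_P406028, mutant pool 1 was the lowest at 5.34 against 5.97 to 6.10 in the other mutant pools, and its gap to the nearest made up 0.838 of the group's range. For the RefSeq probe A_51_P416974 minus A_52_P140177, mutant pool 2, whose label notes a possible leak, was the lowest at 6.48 against 6.89 to 6.93, a share of 0.926. The part of the leak in this value was not tested.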

How the results depend on the processing

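The number of Meis and Pbx probes called was 0 under all 20 alternatives, of which the interquartile filter kept only 9 of the 13 probes, with 0.307 as the lowest adjusted p (limma, array weights, Pbx3 A_52_P406028), and under the replicate block it was 0 too. Hox counts stayed at 0. The probe pairs gave 0 too, which says nothing about stability, since with 1 pool left out the smallest exact permutation p is 0.0667 or 0.1. The TALE count of 1 (*Irx1*) became 0 with the authors' values, also at 1 median per array, with no filter on dim probes and under the replicate block, and was 0 to 1 on leaving out 1 pool. The Hedgehog calls held under the replicate block and were lost with both forms of the authors' values (adjusted p of *Hhip* 0.934 and 0.117), though the changes stayed large, -3.41 and -2.80 for *Hhip* and -3.09 and -2.48 for *Foxf2*. The retinoic acid count of 0 became 1 (*Crabp1*) with array weights. Over all probes, 123 called became 547 with array weights, 175 with the interquartile filter, 56 with 75th percentile scaling, 33 with no filter, 22 with local background, 11 under the replicate block and 0 with the authors' values (28 at an unadjusted p under 0.05; 1038 at 1 median per array, also 0 called), and 12 to 138 on leaving out 1 pool.

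Signs of the small changes turned as follows. Under the replicate block Meis2 A_52_P290211 was -0.0067 and Pbx2 A_51_P246471 0.023. With local background Meis3 was -0.015 and Pbx2 A_51_P246471 0.21. The authors' values, whose median over all probes was -0.54, gave -0.092, -0.11 and -0.41 for the Meis2 probes, -0.58 for *Meis3* and -0.46 for Pbx3 A_51_P416974; at 1 median they gave 0.23 for Pbx2 A_51_P246471 and 0.0049 for Pbx4 A_51_P428781. Among differences of probe pairs, the 3 of *Meis2* became 0.021, 0.32 and 0.30 with local background, 0.020, 0.32 and 0.30 with both forms of the authors' values, and the first was 0.0046 with quantile normalization. The Pbx4 pair became -0.050 with 75th percentile scaling, -0.079 with quantile normalization, -0.090 with no and -0.091 with local background correction and -0.19 with both forms of the authors' values. The cause was not tested.

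On leaving out 1 pool the changes ran from -0.15 to 0.048 and -0.31 to 0.12 for *Meis1*, -0.037 to 0.15 and -0.016 to 0.28 for Meis2 A_52_P277641 and A_52_P290211, -0.067 to 0.21 for *Meis3*, and -0.094 to 0.038 and -0.38 to 0.10 for *Pbx2*. Pair differences ran from -0.074 to 0.22 for *Meis1*, -0.073 to 0.020, -0.27 to 0.082 and -0.20 to 0.11 for *Meis2*, -0.16 to 0.41 for *Pbx2*, -0.24 to 0.021 for the Pbx3 cDNA probes and -0.052 to 0.11 for *Pbx4*. Others kept their sign but not their size: 0.03 to 0.13 for Meis2 A_51_P422429, 0.05 to 0.15, -0.45 to -0.13 and -0.32 to -0.05 for *Pbx3* A_51_P416974, A_52_P406028 and A_52_P140177, and -0.24 to -0.10 and -0.34 to -0.07 for *Pbx4* A_51_P428773 and A_51_P428781.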
